A study of Homo sapiens with 6 samples.

Results

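Aglaiacized and naive HEK293T-REx cells were compared by ribosome profiling after treatment with DMSO, the solvent control, alone. HEK293T-REx is an established human embryonic kidney line that carries the tetracycline repressor. The comparison took the libraries that the titles call aglaiacized DMSO (n = 2) and naive DMSO (n = 2), which are 4 of the 6 libraries of the series. No library from cells given RocA, the compound under study, entered the tests below; both such libraries entered only the merging of rows and 1 alternative fit. Treatment time and DMSO dose were not used here, and the labels do not say whether the replicates are separate cultures. The p-values therefore reflect library-to-library spread alone, and that spread may be technical. The word aglaiacized is not explained in the labels. In the study it refers to an eIF4A1 given residues found in Aglaia, the plant that makes rocaglates. The labels give neither whether the line is 1 clone nor how the altered protein is expressed.

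Ribosome profiling sequences the short mRNA pieces that ribosomes shield from nuclease, so footprints on a coding region count the ribosomes that were translating it. eIF4A is the RNA helicase of the eIF4F complex, which loads ribosomes at the 5′ end of most capped mRNAs. Rocaglates such as RocA clamp eIF4A onto purine-rich RNA and so block initiation, and Aglaia plants carry an eIF4A that withstands their own compound. In DMSO no rocaglate is present, so this comparison gives the starting difference between the lines on which any response to RocA is laid. A footprint difference can come from more or less mRNA as well as from more or less translation, and no mRNA amounts were used here.

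The unit described is the transcript model: a transcript row with a listed length, merged with every row that held the same counts in all 6 libraries. Of 38543 models, 32338 had a mean count of at least 20 over the 4 libraries and were tested. They held 99.7% to 99.8% of the counts on models in each library. Counts on models came to 18459239 and 18731972 in naive replicates 1 and 2, and to 21337146 and 28428267 in aglaiacized replicates 1 and 2. Aglaiacized replicate 2 was thus the deepest library. Transcript identifiers are not paired with gene names in the files. Of the 82960 identifiers, 4 were found in the reference gene table, none of them with a listed length. Genes and gene groups are therefore not named, and the line could not be checked against its eIF4A counts or the markers of the cell line. Isoforms of 1 gene share reads, so several models can stand for 1 gene.

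The lines differed from each other by more than replicates did, and mostly by small amounts. Over 22523 models whose mean count reached 100, the log2 ratio of 1 library to another had an SD of 0.148 between the naive replicates and 0.184 between the aglaiacized replicates. Between the lines the SD was 0.341 and 0.340 for aglaiacized replicate 1 over naive replicates 1 and 2, and 0.405 and 0.409 for aglaiacized replicate 2. Each of the 4 values between lines was thus above both replicate values. The mean SD between lines was 2.25 times the mean SD of the replicate pairs, and 2.75 times without aglaiacized replicate 1. These SDs are on the log2(CPM + 1) scale, where CPM is the count scaled to a common library size.

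**Figure D1:**
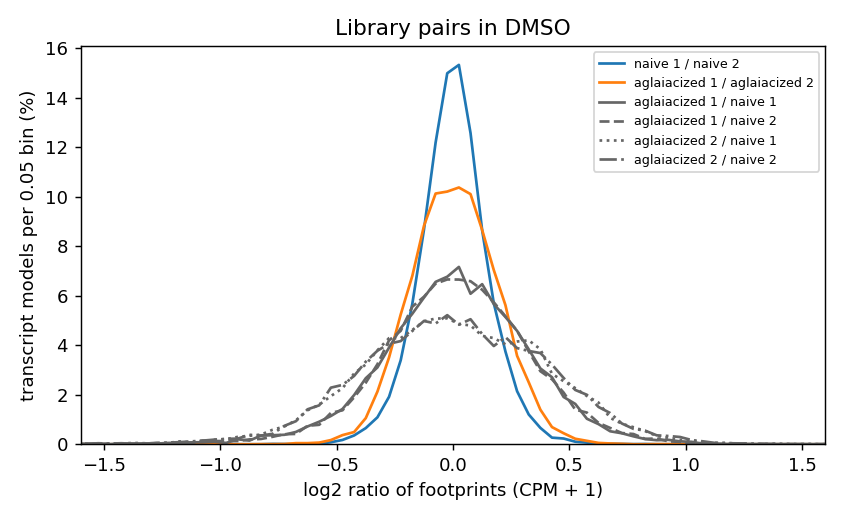
Share of transcript models (vertical axis, percent per 0.05 bin) by log2 ratio of footprints between 2 DMSO libraries (horizontal axis), for the naive replicates (blue), the aglaiacized replicates (orange) and the 4 pairs of 1 library from each line (grey). The grey curves are wider, with SDs of 0.340 to 0.409 against 0.148 and 0.184.

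The share of footprints that sat on different models was also larger between lines. It is the part of a library's counts that would have to move to other models to match the other library. Between the naive replicates it was 2.86%, and between the aglaiacized replicates 4.39%. Between lines it was 8.04% and 7.94% for aglaiacized replicate 1, and 10.3% for aglaiacized replicate 2 over either naive library. No model in the well-covered set differed by 2-fold or more between replicates of either line. Between lines 0.852% to 1.47% of these models did. At 1.5-fold the replicate pairs had 0.120% and 0.262%, and the pairs between lines 6.85% to 13.0%. With 2 libraries a side, the smallest p of an exact permutation test is 0.333, so these library-level values carry no p-value.

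In the edgeR quasi-likelihood test, 11272 of 32338 models (34.9%) differed between the lines at an adjusted p under 0.05. Of these, 5745 were higher in aglaiacized cells (17.8% of those tested) and 5527 lower (17.1%). The median log2 fold change, aglaiacized over naive, was 0.49 in those called higher and -0.51 in those called lower. Of the calls, 64.3% were smaller than 1.5-fold and 92.4% smaller than 2-fold. The central 90% of all tested models lay between -0.70 and 0.63. The levels of the lines did not overlap in 11221 of the called models, and they overlapped in 51. Over all tested models, called or not, 67.3% had no overlap, beside the 34.9% that were called. With total counts and no scaling factor, 40.4% of the calls were higher in aglaiacized cells in place of 51.0%. The number of calls was 5538 without naive replicate 1, 5292 without naive replicate 2, and 6284 with DESeq2.

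The test took most of its error from all models together. The 4 libraries leave 2 residual degrees of freedom, while the median degrees of freedom after sharing between models were 125. At a given level, whether a model was called therefore followed the size of its difference closely. Counting noise alone gives a chi-square per degree of freedom of 1, and it was 1.92 between the naive and 4.69 between the aglaiacized replicates. Above 1 this value also rises with depth, and the aglaiacized libraries were deeper, so the 2 values are not directly comparable. The SD of log2 ratios in the well-covered set was larger in the aglaiacized pair too, at 0.184 against 0.148. When a naive library was left out, the aglaiacized pair alone gave the spread. When aglaiacized replicate 1 or 2 was left out, the naive pair gave it, and the calls numbered 14241 and 8886.

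In the edgeR fit, which took most of its error from all models together, the difference was bounded as small for many models. These bounds depend on that shared error and on replicates whose spread may be technical. The 95% confidence interval of the fold change lay within 1.5-fold either way for 51.0% of tested models and within 2-fold for 87.3%. Among the 21066 models that were not called, the interval lay within 1.5-fold for 13893 (66.0%). For 1204 of the models not called it reached 2-fold or beyond, so the data do not bound the difference below 2-fold there. The median standard error (SE) of the log2 fold change was 0.144.

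Large differences went down in aglaiacized cells more often than up. At 2-fold or more, 226 models were called higher (0.699% of those tested) and 629 lower (1.95%), together 855 (2.64%). At 4-fold or more, 4 were higher and 100 lower. None of these 855 models had overlapping levels, which follows nearly from how they were chosen. No overlap was seen in 99.5% of all called models and in 67.3% of all tested models. The excess of falls at 2-fold was also present with RLE factors (228 higher, 620 lower), with unscaled total counts (156 and 739) and with DESeq2 (154 and 479). Its size varied with the aglaiacized library used: 408 models were higher and 803 lower without aglaiacized replicate 1, and 156 and 656 without aglaiacized replicate 2. The 629 lower models took 0.888% and 0.887% of naive footprints and 0.329% and 0.312% of aglaiacized footprints. The 226 higher models took 0.120% and 0.121% in naive and 0.234% and 0.265% in aglaiacized cells. These shares describe models chosen for their difference. Models called higher at 2-fold had a median listed length of 315 length units, and those called lower a median of 497.

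**Figure D2:**
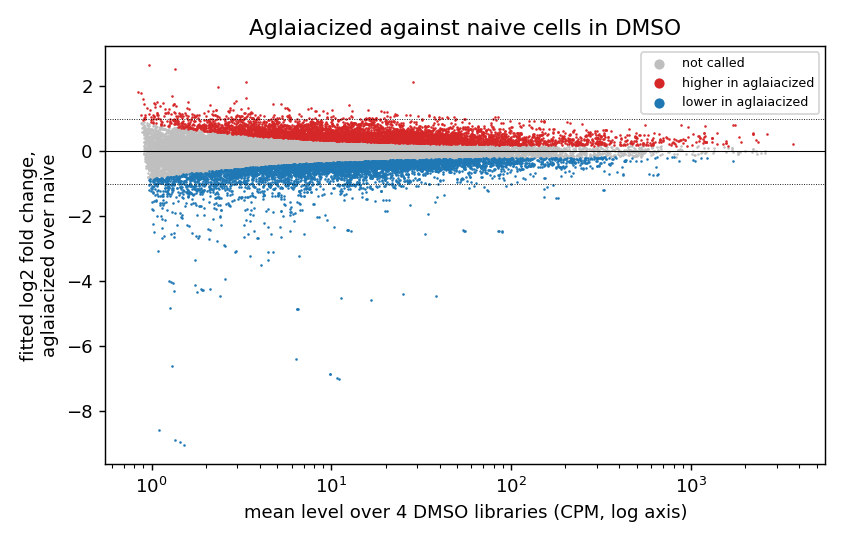
Fitted log2 fold change, aglaiacized over naive (vertical axis), against the mean level over the 4 libraries in CPM (horizontal log axis) for each tested model. Red and blue points are called higher (5745) and lower (5527), grey points are not called, and dotted lines mark 2-fold. Values below about -6 rest on 0 to 7 counts in each aglaiacized library.

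Many of the large differences lay in neighbouring rows, which isoforms of a gene or overlapping genes occupy. Called models of at least 2-fold in the same direction, with row numbers at most 5 apart, were joined into runs. The 629 lower models fell into 279 runs, of which 137 were single models and 47 held more than 3. The 226 higher models fell into 137 runs, of which 91 were single and 10 held more than 3. At 4-fold, the 100 lower models made 51 runs and the 4 higher models 3 runs. The excess of falls was thus present in runs as well as in models.

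The 2 models with the largest rise that passed the naming rule (mean count of at least 50) are uc004equ.3 and uc003ywn.2. For uc004equ.3 (listed length 393) the level was 11.5 and 9.64 CPM in naive replicates 1 and 2, and 49.5 and 43.5 CPM in aglaiacized replicates 1 and 2. In this model both aglaiacized libraries lay above both naive libraries, as the rule required. Its log2 fold change was 2.13 (SE 0.12, edgeR adjusted p = 6.8e-34). For uc003ywn.2 (listed length 387) the level was 1.34 and 1.15 CPM in naive and 4.59 and 6.25 CPM in aglaiacized cells. The rule required no overlap here too, and the aglaiacized replicates stood further apart than the naive ones. Its mean count reached 50 only through the aglaiacized libraries, with 25 and 22 counts in naive and 96 and 174 in aglaiacized cells. Its log2 fold change was 2.13 (SE 0.24, edgeR adjusted p = 2.74e-13). The other 2 models that were at least 4-fold higher were neighbours with 4 to 9 counts in each naive library. They held 25 and 37 counts in aglaiacized replicate 1, and 59 and 78 in replicate 2. Through these aglaiacized counts alone they passed the count filter.

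The 2 named falls, uc010wvd.1 and uc010wve.1, are neighbours in the same run of 5 models and may share reads. Both passed the count filter and the naming bar through their naive counts alone. Like the named rises, they were picked for the size of their difference, so their p-values and intervals describe that choice and are no separate support. The counting intervals pool the 2 libraries of a line and leave out the spread between replicates. For uc010wvd.1 (listed length 337) the level was 21.7 and 21.9 CPM in naive cells, from 405 and 418 counts. In aglaiacized cells it was 0.048 and 0.251 CPM, from 1 and 7 counts. The summed counts of the lines gave a level 133 times lower in aglaiacized cells (exact 95% counting interval 67.1 to 309; log2 fold change -7.01, SE 0.26, edgeR adjusted p = 6.71e-51). For uc010wve.1 (listed length 211) the level was 12.5 CPM in both naive libraries, and 0.048 and 0.216 CPM in aglaiacized cells, from 1 and 6 counts. It was 87.2 times lower there (exact 95% counting interval 42.0 to 218; log2 fold change -6.39, SE 0.29, edgeR adjusted p = 8.89e-42). These sizes turned on single libraries: without aglaiacized replicate 1 the log2 fold changes were -6.39 for uc010wvd.1 and -5.81 for uc010wve.1, and without aglaiacized replicate 2 they were -8.65 and -7.85. In both models aglaiacized replicate 1 thus held only 1 count, fewer than the 3 counts used below as a floor. Replicate 2, the deeper library, held 7 and 6 counts, and its level in CPM was also higher.

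**Figure D3:**
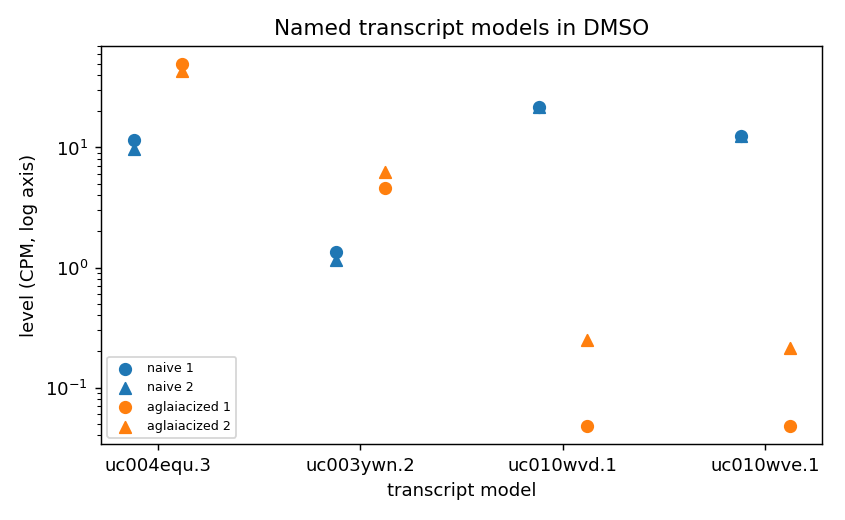
Level in CPM (vertical log axis) of the 4 named transcript models in naive (blue) and aglaiacized (orange) DMSO libraries, with circles for replicate 1 and triangles for replicate 2. The 2 models on the left are higher in both aglaiacized libraries, and the 2 on the right fall from above 12 CPM to below 0.3 CPM.

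Other runs of falls were chosen for mention after their values were seen, for their level or for their size. A run of 7 models (listed lengths 339 to 550) fell at a high level, from 88.7 to 154 CPM in the naive libraries to 16.2 to 28.2 CPM in the aglaiacized libraries. Its log2 fold changes ran from -2.47 to -2.41 (largest edgeR adjusted p = 2.4e-45). A run of 4 models (listed lengths 282 to 1075) held 20.7 to 75.2 CPM in naive and 0.898 to 3.45 CPM in aglaiacized cells, with log2 fold changes of -4.56 to -4.38. The run with the most models at 4-fold had 10, with 38 to 94 counts in each naive library. They held 1 to 3 counts in aglaiacized replicate 1 and 5 to 7 in replicate 2. These 10 models passed the count filter through the naive libraries alone. Among all falls of at least 2-fold, the most abundant model (listed length 798) was at 463 and 446 CPM in naive and 213 and 187 CPM in aglaiacized cells. Its log2 fold change was -1.19 (SE 0.08, edgeR adjusted p = 3.75e-28). In each of these runs, every aglaiacized library lay below every naive library. This was so for all 629 models called at least 2-fold lower, and it follows nearly from how they were chosen.

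The levels of rises and falls of at least 2-fold were much alike, apart from a few abundant falls. By the most abundant model of each run, the median mean level was 2.90 CPM over runs of rises and 2.73 CPM over runs of falls. The most abundant model among the rises (listed length 1478) was at 55.0 and 55.8 CPM in naive cells and 109 and 120 CPM in aglaiacized cells. Its log2 fold change was 1.05 (SE 0.09, edgeR adjusted p = 1.17e-19). None of the 137 runs of rises, and 4 of the 279 runs of falls, held a model with a mean level of at least 100 CPM. At a mean of at least 10 CPM there were 26 runs of rises and 54 of falls.

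A few models had no footprint in the libraries of 1 line, and they were mostly missing from aglaiacized cells. Of the tested models, 4 were at 0 counts in both aglaiacized libraries and none was at 0 in both naive libraries. These 4 lay in 2 runs and held 35 to 60 counts in each naive library, through which alone they passed the count filter. Setting each aglaiacized library at 3 counts, they were at least 17.5-fold to 24.2-fold lower in aglaiacized cells. This bound describes models picked for their 0 counts and is no test. Among all 38543 models, 13 were at 0 in both aglaiacized libraries with at least 10 counts in each naive library, in 5 runs. No model met the mirrored rule. At a lower bar of 1 count in each library of the other line, 127 models (87 runs) were at 0 in both aglaiacized libraries. By the same bar 46 models (43 runs) were at 0 in both naive libraries, although the aglaiacized libraries were deeper.

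The share of models called was larger at higher levels, and the balance of directions changed along it. In the lowest of 5 level groups (0.840 to 3.05 CPM, 6468 models), 6.90% were called higher and 12.4% lower. In the highest (29.3 to 3684 CPM, 6468 models), 29.8% were called higher and 20.6% lower. Over all tested models the shares were 17.8% and 17.1%. The excess of rises in the highest group was lost under another scaling: unscaled total counts gave 24.4% higher and 26.4% lower. Falls outnumbered rises in the lowest group under all 3 scalings. In that group 313 models were at least 2-fold lower and 108 at least 2-fold higher, against 32 and 14 in the highest group. The median SE was 0.270 in the lowest and 0.0926 in the highest group, so a difference was measured more precisely at the top.

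**Figure D4:**
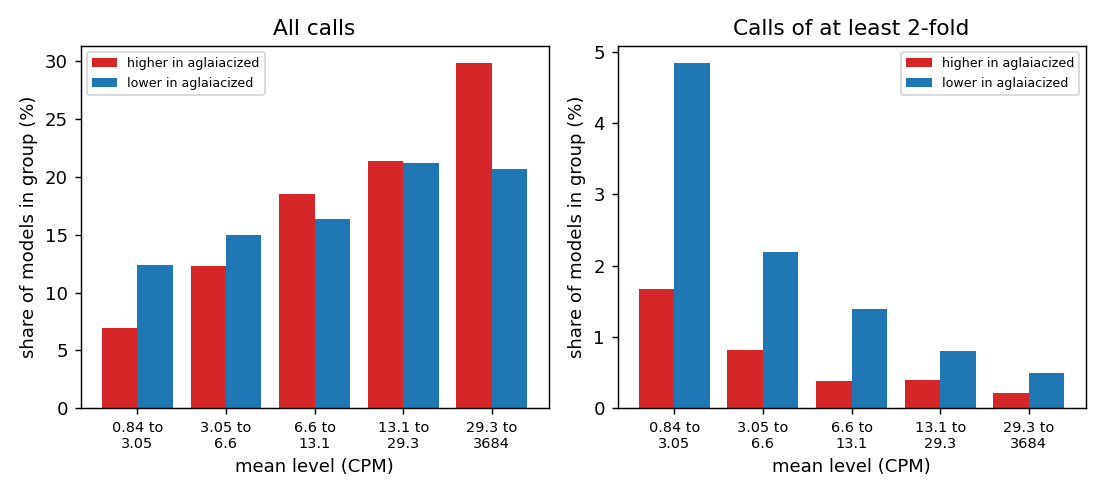
Share of transcript models (percent) called higher (red) or lower (blue) in aglaiacized cells, in 5 groups by mean level in CPM, for all calls (left) and for calls of at least 2-fold (right). The share called higher climbs with level to 29.8%, the share called lower goes from 12.4% to 21.2% in the next-to-highest and 20.6% in the highest group, and calls of at least 2-fold are most frequent in the lowest group, at 1.67% higher and 4.84% lower.

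The typical size of a difference exceeded the replicate spread at every level. In the highest level group the median size of the log2 ratio was 0.0650 between the naive and 0.109 between the aglaiacized replicates. Between lines it was 0.188 to 0.264 there. In the lowest group the replicate values were 0.257 and 0.260, and the values between lines 0.364 to 0.412. The gap between lines and replicates was thus wider, as a ratio, in the highest than in the lowest group. Counting noise enters both sides of this ratio and is larger in the lowest group, where the median count was 39 against 1240. The ratio therefore does not show that the lines differed more at high levels.

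Transcripts with a short listed length were slightly higher in aglaiacized cells and those with a long one slightly lower. The unit of the listed length is not stated, and it is read here as a coding length. In the shortest of 5 groups (16 to 216 length units, 6512 models) the median log2 fold change was 0.05, with 21.1% called higher and 13.9% lower. In the longest (770 to 14498 length units, 6458 models) it was -0.06, with 13.1% called higher and 21.8% lower. The shares called in either direction were close to the 34.9% of all tested models in both groups, at 35.0% and 34.9%, so the groups differed in direction and not in how many were called. With unscaled total counts the medians were -0.01 in the shortest and -0.12 in the longest group, so the signs depended on scaling and the order of the 2 groups did not.

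The length gradient was small but had the same sign in every pair of libraries between lines. The shortest group's median minus the longest group's median, on the log2(CPM + 0.01) scale, was 0.0897 and 0.0805 for aglaiacized replicate 1 over naive replicates 1 and 2. For aglaiacized replicate 2 it was 0.150 and 0.134. The mean of the 4 was 0.114. Replicate 1 over replicate 2 gave -0.0173 for the naive pair and -0.0540 for the aglaiacized pair. All 4 values between lines were larger in size than both replicate values. Aglaiacized replicate 2 had the steeper gradient, as it had the wider spread. Within the 5 level groups the mean contrast between lines ran from 0.0977 to 0.180, so it was present at each level.

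**Figure D5:**
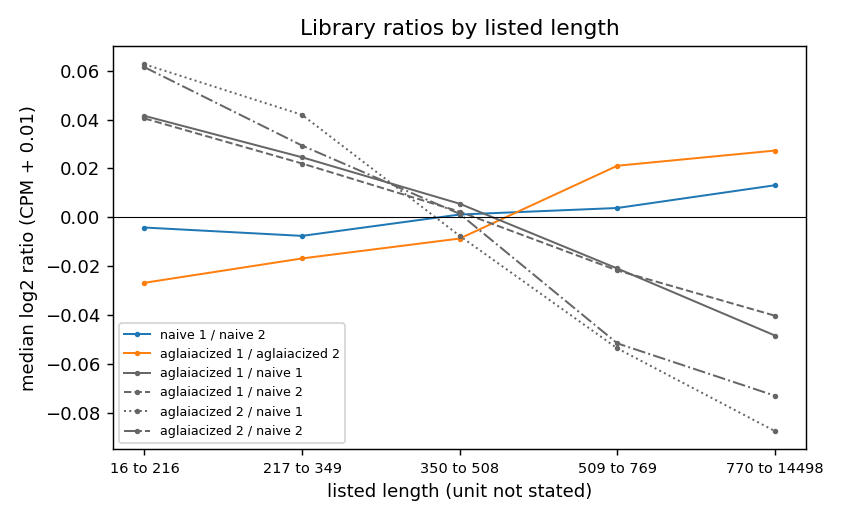
Median log2 ratio of 2 DMSO libraries (vertical axis, CPM + 0.01) in 5 groups by listed length (horizontal axis), for the naive replicates (blue), the aglaiacized replicates (orange) and the 4 pairs between lines (grey). The grey lines fall from the shortest to the longest group by 0.0805 to 0.150. For replicate 1 over replicate 2 the same difference is -0.0173 (naive) and -0.0540 (aglaiacized). The sign of a replicate value turns only on which replicate is the numerator.

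Models of very long listed length were lower in aglaiacized cells by more than the longest group as a whole. For the 554 tested models of 2000 length units or more, the median log2 fold change was -0.23, with 210 called lower (37.9%) and 43 higher (7.76%), against 17.1% and 17.8% of all tested models. The median ratio was -0.19 and -0.18 with aglaiacized replicate 1 over naive replicates 1 and 2. It was -0.27 and -0.25 with aglaiacized replicate 2. The replicate pairs gave 0.03 (naive) and 0.05 (aglaiacized). Of these models, 26 were called at least 2-fold lower and none at least 2-fold higher, against 1.95% and 0.699% of all tested models. For the 943 models of 100 length units or less the median was 0.08, with 202 called higher (21.4%) and 119 lower (12.6%). The median ratio of each pair between lines was 0.07 to 0.08 there, and those of the replicate pairs -0.00285 and -0.0191. Of these 943 models, 12 were called at least 2-fold higher and 11 at least 2-fold lower, against 0.699% and 1.95% of all tested models. This balance depended on scaling: unscaled total counts gave 7 higher and 16 lower, and a median of 0.03. In the shortest of the 5 groups 74 were higher (1.14%) and 114 lower (1.75%), against 0.699% and 1.95% of all tested models. The longest group had 0.449% and 2.52%. Large rises were thus more frequent in the shortest group than over all tested models, and the share of large falls was close to that over all. With unscaled total counts the shortest group had 53 rises and 149 falls of at least 2-fold in 6512 models, against 156 and 739 in all 32338. The shortest group also had the lowest median count (163, against 256 in the longest), and level was not matched here.

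The same tilt appeared in where the footprints lay. The shortest length group held 22.5% and 22.6% of tested footprints in the naive libraries and 23.9% and 24.4% in the aglaiacized libraries. The longest group held 18.0% and 17.8% in naive and 17.2% and 16.9% in aglaiacized cells. Neither group's shares overlapped between the lines. As these are shares of a library, they do not depend on a scaling factor.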

How the data were processed

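The authors deposited raw footprint counts, 1 whole number per transcript row, with a listed length and no header. The submitters' processing notes name CASAVA 1.8, Bowtie2 2.1.0, TopHat2 2.0.9 and the build hg19; the sources used here do not name the counting program or its handling of reads with several matches. Of 82960 rows, 19269 had no length and held 0 counts. Of the others, 50582 held a count, and they gave 38543 models. Depth over all rows was 21837196 to 33640289 counts in the 4 libraries. The exact counting intervals cover counting error only. The confidence intervals of the edgeR fold changes come from the SE of the fit. They therefore also include the spread between replicates, as the fit shared it between models.

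The test was edgeR's (version 4.0.16, under R 4.3.3; quasi-likelihood, TMM factors, 4 libraries, two-sided, Benjamini-Hochberg adjustment over all 32338 models). The SE is the absolute log2 fold change over the square root of F. The script was tested on simulated data. Named models are the 2 largest called rises and falls whose mean count reached 50 and whose lines did not overlap; a second model with mean counts within 1.25 times the first in both lines was skipped. The members and lists were chosen with earlier results of these data known. Gene lists and markers needed gene names and were not run. No sequences are shown.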

Additional observations from a re-analysis of the deposited data

How the results depend on the processing

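Calls numbered 11272, and 6284 with DESeq2 (which left 1881 models without an adjusted p; the cause was not tested). They numbered 7491 with 1 model per run of near-identical rows, where 22666 models were tested, and 4671 when tested against a fold change of 1.2, a stricter question. Leaving out each library gave 5292 to 14241 calls, 812 to 1211 of at least 2-fold in place of 855, a length contrast of 0.085 to 0.142 and a spread ratio of 2.03 to 2.75. Calls of at least 2-fold numbered 1463 with no filter on low counts (38532 models tested) and 314 with a mean count of at least 100 (22523 tested). With 10 length groups the length contrast was 0.157, since the end groups are then more extreme. The replicate block gave 10706 calls, 10693 of which the unblocked fit also made, and 844 of at least 2-fold; deviations of same-numbered libraries had r = -0.05 across models. The 4 named models kept their direction and their call in every alternative that tested them, which include a fit of all 6 libraries (11310 calls). Depth limits the lowest level group most.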

Other observations

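Footprints were somewhat more concentrated on abundant models in the aglaiacized libraries. The 10 top models held 2.51% and 2.47% of counts in naive replicates 1 and 2, and 2.63% and 2.80% in aglaiacized replicates 1 and 2. The 1000 top models held 43.0% and 42.8% in naive and 44.4% and 44.6% in aglaiacized cells. The values of the lines did not overlap in either set. No test was run, since the smallest exact permutation p here is 0.333.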
